A study of Homo sapiens with 6 samples.

Results

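Receptor tyrosine kinases outside the EPH family were examined as a set of 34 genes, named one by one and found among the 27980 gene symbols measured in the series. The genes were taken by name and family, with no threshold on a measured value. RNA was sequenced from RKO, a human cell line of poorly differentiated colon carcinoma. In 3 libraries (shTRIP6) a lentivirus had stably introduced a short hairpin RNA that targets TRIP6. This gene encodes a LIM-domain adaptor protein, and the genotype label is TRIP6 knockdown. In the other 3 (shControl) the cells carried a scrambled hairpin from the same kind of lentivirus, with the genotype given as WT. Both groups were selected with 5 µg/ml puromycin from 36 h after infection for 2 to 3 weeks, so the controls had also been infected and selected. The sources used here do not give the number and sequence of the hairpins or the stock of cells behind each group, and a difference between stocks cannot be told apart from a difference between hairpins. The labels call the 3 libraries of a group biological replicates without naming separate cultures. The p-values therefore measure only the spread between these libraries.

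Receptor tyrosine kinases are single-pass membrane proteins with an extracellular ligand-binding part and an intracellular kinase domain. Ligand binding brings receptors together, the kinase domains phosphorylate each other, and adaptors such as GRB2 and SHC1 connect the receptors to the RAS-ERK and PI3K-AKT cascades. In colon epithelium and its tumours, signalling through EGFR and MET is the best known branch, while the vascular (KDR, TEK) and blood-cell (FLT3, CSF1R) receptors are best known from other cell types.

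TRIP6 itself was checked first. Its level was 19.8, 19.4 and 19.5 CPM (counts scaled to library size in the usual way) in shTRIP6 replicates 1 to 3, and 73.9, 86.4 and 80.5 CPM in shControl. The shTRIP6 libraries thus held 24.3% of the control mean, with no overlap (log2 fold change -2.04 ± 0.07 SE, edgeR adjusted p = 1.25e-14). Libraries held 29605764 to 32089298 counts, and a single count was worth 0.0314 to 0.0336 CPM. Replicates were not copies of one another: the chi-square divided by its degrees of freedom was 3.05 to 4.59 within shTRIP6 and 4.81 to 11.7 within shControl. Sampling noise alone gives about 1 if counts are independent. Counts here may not be independent molecules, as described below, and the reference of 1 may then be too low. Below, values are mean CPM ± SD (n = 3 per group), log2 fold changes (± SE) compare shTRIP6 with shControl in the quasi-likelihood test of edgeR, and "called" means a Benjamini-Hochberg adjusted p under 0.05 over all genes tested.

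Of the 34 receptor genes, 21 had enough counts to be tested, and 11 of these were higher and 4 lower in shTRIP6, while 6 were not called. Over all 15473 genes tested, 29.0% were called higher and 31.2% lower, so 60.1% in all. The median log2 fold change of the 21 tested receptor genes was 0.85, against 0.00 (-0.00397) over all genes tested. The libraries of the groups did not overlap in 15 of the 21, against 65.3% of all genes tested. Rises of at least 2-fold numbered 7 (FLT4, STYK1, ERBB3, FGFR3, DDR2, AXL and PDGFRB), where 4.38% of all tested genes rose that far. A single receptor gene, MST1R, fell by at least 2-fold, where 10.5% of all tested genes did. FLT4 passed the filter on low counts only through its shTRIP6 libraries, so its difference is partly built into its being tested. Members were chosen by name with earlier results of these data known, and they are no random sample of genes. The median and these shares are given as a description.

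**Figure D1:**
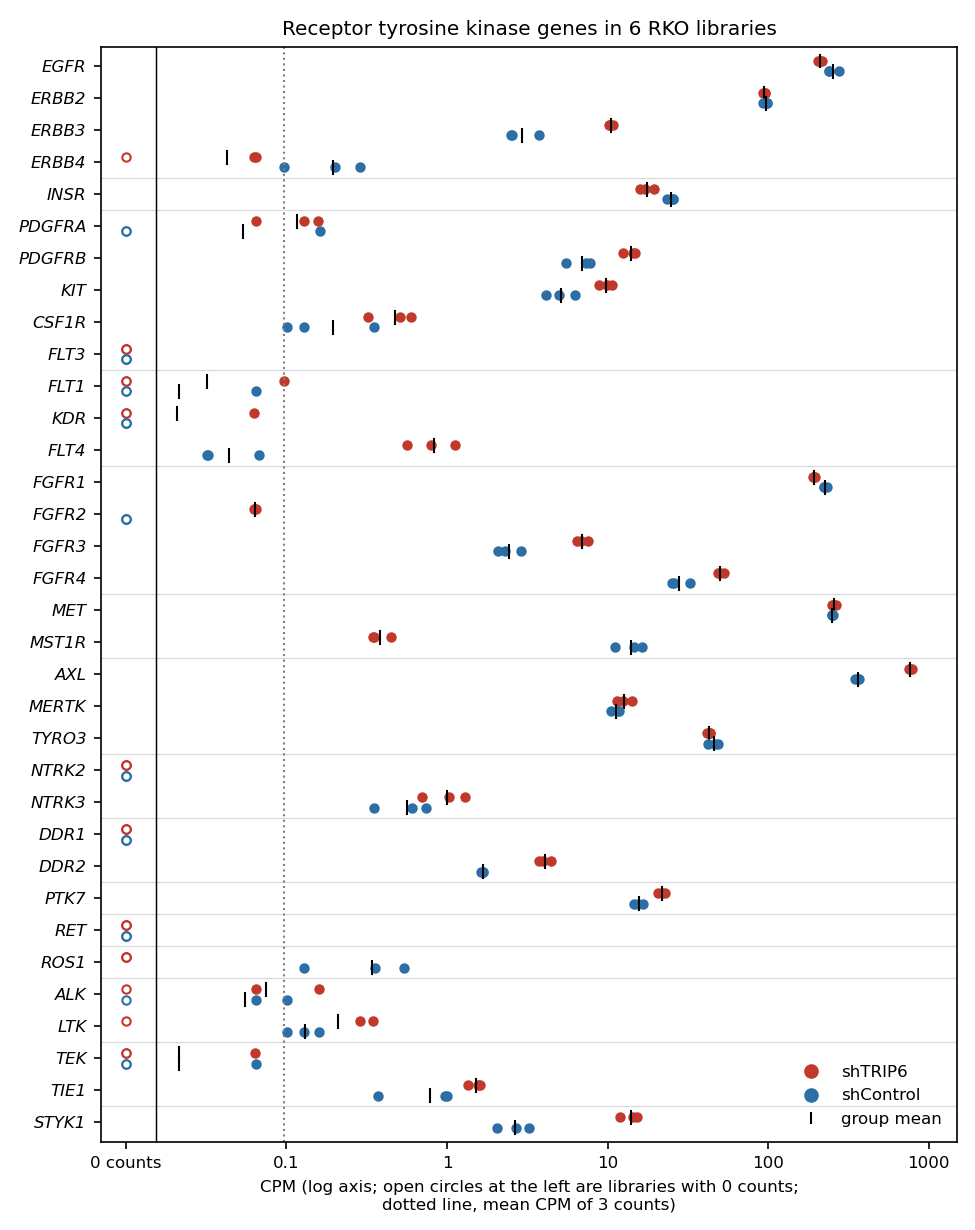
CPM of the 34 receptor tyrosine kinase genes in each library (log axis, with libraries at 0 counts drawn as open circles left of the vertical line), red for shTRIP6 and blue for shControl, with black ticks at group means. AXL, MET, EGFR and FGFR1 lie above 190 CPM in all 6 libraries, MST1R is the gene with the widest gap between groups among those above 10 CPM in shControl, and FLT3, NTRK2, DDR1 and RET are at 0 throughout.

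**Figure D2:**
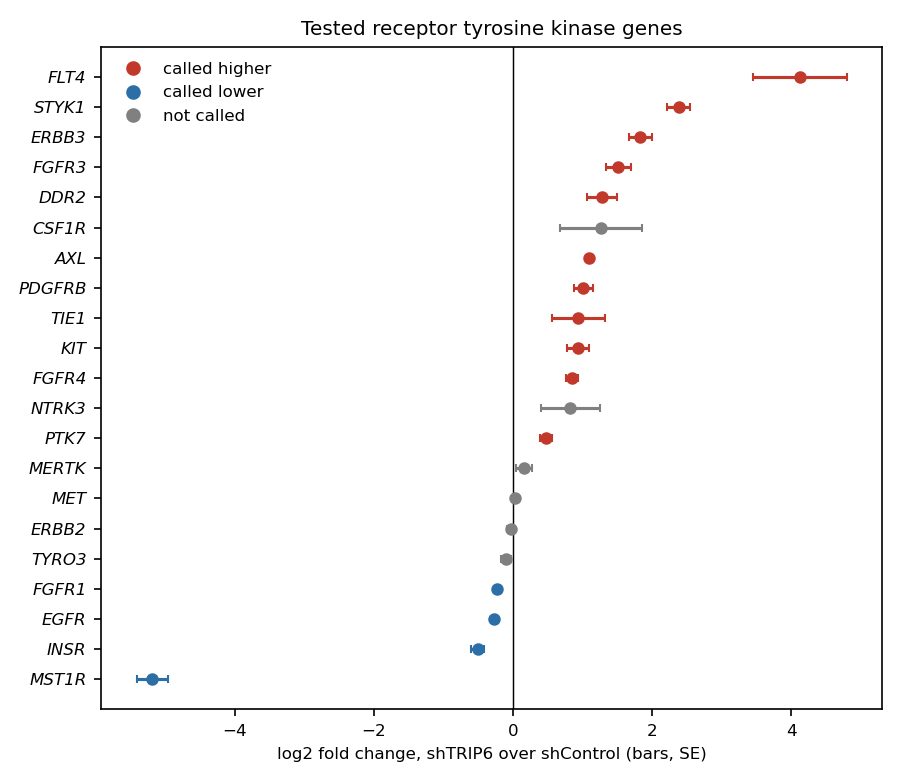
Log2 fold change of shTRIP6 over shControl for the 21 tested receptor genes, with SE as bars. The 11 genes called higher run from PTK7 (0.48) to FLT4 (4.13), and of the 4 called lower FGFR1, EGFR and INSR lie between -0.22 and -0.51 while MST1R lies at -5.19.

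Levels of different genes were compared as CPM per kb of exon, since longer transcripts give more reads. On this scale AXL was the most abundant receptor mRNA in both groups, at 149 ± 3.39 CPM per kb in shTRIP6 and 70.0 ± 1.89 CPM per kb in shControl. MET came second, at 36.5 ± 1.12 and 35.6 ± 0.180 CPM per kb. EGFR followed at 16.8 ± 0.428 in shTRIP6 and 20.2 ± 1.63 in shControl, and FGFR1 at 14.0 ± 0.162 and 16.3 ± 0.326 CPM per kb. FGFR4 and ERBB2 changed places: in shTRIP6 FGFR4 stood at 10.4 ± 0.458 and ERBB2 at 9.17 ± 0.150, and in shControl FGFR4 stood at 5.79 ± 0.877 and ERBB2 at 9.36 ± 0.260 CPM per kb. MST1R went from rank 8 in shControl to rank 20 in shTRIP6, and STYK1 from rank 14 to rank 7. Summed over the 34 genes, the level per length was 258 ± 3.28 in shTRIP6 and 175 ± 2.49 CPM per kb in shControl. AXL alone made up 57.3% to 58.5% of that sum in the shTRIP6 libraries and 39.2% to 40.7% in the shControl libraries. With the longest transcript as the length, EGFR and FGFR1 changed places, ERBB2 stood above FGFR4 in both groups, and the share of AXL was 51.2% in shTRIP6 and 33.6% in shControl.

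**Figure D3:**
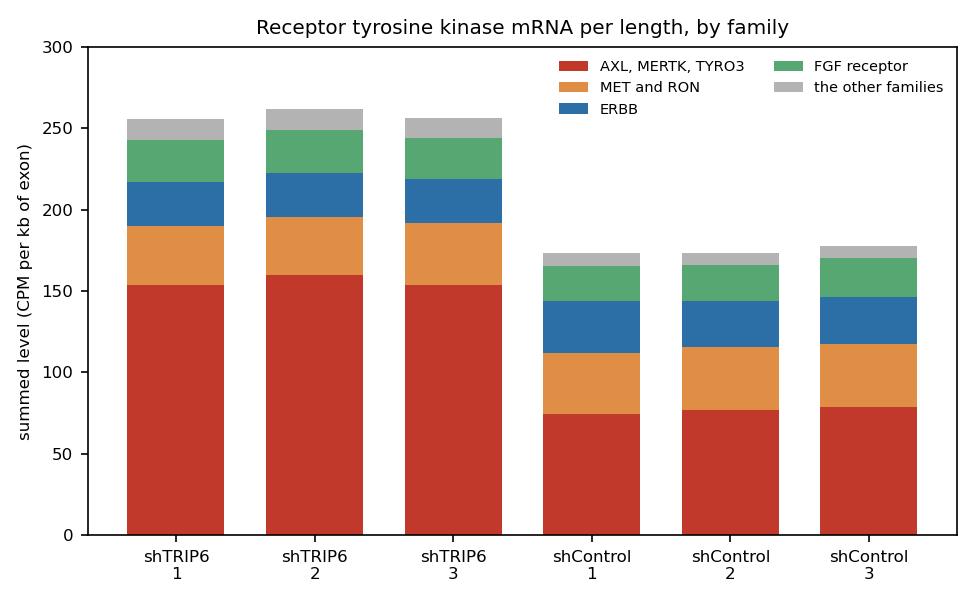
Summed level per length (CPM per kb of exon) of the 34 receptor genes in each library, stacked by family. The red block of AXL, MERTK and TYRO3 is larger in the 3 shTRIP6 libraries, at 60.3% of the sum against 43.9% in shControl, while the blocks of MET and RON (36.6 and 38.3), ERBB (27.1 and 29.9) and FGF receptors (25.9 and 22.6 CPM per kb) are closer in height.

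AXL, MERTK and TYRO3 form the TAM family, whose ligands GAS6 and PROS1 bridge the receptors to phosphatidylserine on membranes. AXL (chromosome 19, 41219203 to 41261766, plus strand, GRCh38) stood at 759, 789 and 758 CPM in shTRIP6 and at 350, 363 and 369 CPM in shControl. Every shTRIP6 library lay above every shControl library, and the rise was 1.09 ± 0.04 on the log2 scale (edgeR adjusted p = 4.54e-14). MERTK, which serves the uptake of dying cells, was at 12.7 ± 1.38 in shTRIP6 and 11.3 ± 0.723 CPM in shControl, with overlapping libraries and a 95% interval of the log2 fold change from -0.08 to 0.41. TYRO3 was at 42.9 ± 1.15 and 45.9 ± 3.41 CPM (interval -0.24 to 0.05). It was not called (edgeR adjusted p = 0.238) except without shControl replicate 1, where it was lower by a small amount (log2 fold change -0.15, adjusted p = 0.0386, with other alternatives at up to 0.594). The ligand gene GAS6 rose together with AXL, from 65.5, 75.5 and 76.5 CPM in shControl to 190, 184 and 181 CPM in shTRIP6 (log2 fold change 1.35 ± 0.06, edgeR adjusted p = 3.64e-13). PROS1, at 57.8 ± 2.06 and 52.1 ± 3.21 CPM, was just past the threshold (log2 fold change 0.15 ± 0.06, adjusted p = 0.0482). It lost that call in 8 of 14 alternatives, among them RLE scaling (0.0531), DESeq2 (0.0795) and the fit without shControl replicate 2 (0.199).

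MET and MST1R encode the receptors for hepatocyte growth factor and for macrophage-stimulating protein (the latter receptor is also called RON). MET stood at 256, 250 and 265 CPM in shTRIP6 and 250, 252 and 250 CPM in shControl, and the 95% interval of its log2 fold change ran from -0.06 to 0.13. MST1R (chromosome 3, 49887002 to 49903873, minus strand, GRCh38) stood at 0.345, 0.352 and 0.450 CPM in shTRIP6 against 11.2, 14.6 and 16.4 CPM in shControl. The shTRIP6 libraries, with 11, 11 and 14 counts, held 2.72% of the control mean, and the groups lay far apart (log2 fold change -5.19 ± 0.23, edgeR adjusted p = 3.95e-13). Of their ligand genes, HGF had no count in any library. MST1 stood at 1.65 ± 0.589 and 1.45 ± 0.248 CPM with overlapping libraries (95% interval of the log2 fold change -0.49 to 0.86, edgeR adjusted p = 0.647).

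AXL and MST1R, the most abundant receptor gene that rose and the receptor gene with the largest fall, are shown with the 250 bases before their RefSeq starts (GRCh38.p14, 5′ to 3′ on the strand of the gene). Capitals mark matches, on either strand, to the core letters GGAATG (bound by TEAD factors), TGANTCA (AP-1), CACCTG (an E-box bound by ZEB and SNAI repressors) and GGGCGG (SP1). The first AXL window lies at chr19:41218973-41219222, with its last 20 bases in an exon of AXL in GENCODE 29, and the second, outside the exons of AXL, at chr19:41226505-41226754. The MST1R window lies at chr3:49903874-49904123, on the minus strand and outside the exons of MST1R.
AXL, first start: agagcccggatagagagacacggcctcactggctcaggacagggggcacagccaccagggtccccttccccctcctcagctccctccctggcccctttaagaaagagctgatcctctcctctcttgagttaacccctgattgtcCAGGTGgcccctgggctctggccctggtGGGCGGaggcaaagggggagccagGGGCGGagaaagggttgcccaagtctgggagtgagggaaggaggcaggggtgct
AXL, second start: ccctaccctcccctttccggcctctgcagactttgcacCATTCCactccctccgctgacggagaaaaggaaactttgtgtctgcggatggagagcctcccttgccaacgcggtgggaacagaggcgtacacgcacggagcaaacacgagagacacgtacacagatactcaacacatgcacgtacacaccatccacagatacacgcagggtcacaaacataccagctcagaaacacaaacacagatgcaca
MST1R: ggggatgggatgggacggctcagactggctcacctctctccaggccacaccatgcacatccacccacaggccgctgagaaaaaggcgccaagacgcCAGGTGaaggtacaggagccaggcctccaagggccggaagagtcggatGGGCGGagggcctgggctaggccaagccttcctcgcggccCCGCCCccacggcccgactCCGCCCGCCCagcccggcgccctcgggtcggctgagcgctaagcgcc

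The second AXL window held 1 match to the TEAD letters, seen as CATTCC on this strand, and no match to the other 3. The first AXL window held 1 E-box and 2 SP1 matches, and the MST1R window 1 E-box and 4 SP1 matches, of which some overlap each other. The MST1R window held 20 CpG dinucleotides, the AXL windows 4 and 13, and the median over all 35114 RefSeq windows was 11. Of all those windows, 11.9% held the TEAD letters, 6.57% the AP-1 letters, 17.5% the E-box and 42.6% the SP1 letters. Among the 56 windows found for 30 of the 34 receptor genes, the shares were 10.7%, 10.7%, 19.6% and 53.6% in the same order. A match is a run of letters in a window and was not tested as a binding site.

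The ERBB family binds EGF-like ligands and neuregulins. EGFR, its founding member, was slightly lower, at 204, 215 and 211 CPM in shTRIP6 against 276, 241 and 241 CPM in shControl (log2 fold change -0.27 ± 0.05, edgeR adjusted p = 0.000299). ERBB2, which has no ligand of its own and acts as a partner, stood at 94.7 ± 1.55 and 96.6 ± 2.68 CPM (95% interval of the log2 fold change -0.14 to 0.08). ERBB3, a neuregulin receptor with little kinase activity, stood at 10.4, 10.8 and 10.2 CPM in shTRIP6 against 2.55, 2.50 and 3.75 CPM in shControl. Its groups were well apart, and it rose by 1.83 ± 0.17 on the log2 scale (adjusted p = 2.35e-08). ERBB4, the other neuregulin receptor, had 2, 0 and 2 counts in shTRIP6 and 6, 9 and 3 in shControl, too few to be tested. Per length, ERBB3 stood at 1.16 CPM per kb in shTRIP6, still under ERBB2 at 9.17. Exons of ERBB2 overlap those of MIEN1, at 56.6 mean CPM in shTRIP6 and 57.8 in shControl, and of PGAP3, at 3.61 and 5.03. Exons of EGFR overlap those of EGFR-AS1, an antisense gene at 7.52 to 8.56 mean CPM. No source used here says whether counting used strand, so reads from an overlap cannot be told apart.

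Of the 4 FGF receptor genes, 2 rose, 1 fell and 1 was silent. FGFR1, the family member found most widely in mesenchymal cells, was at 194, 191 and 196 CPM in shTRIP6 and 223, 224 and 231 CPM in shControl, a small fall with no overlap (log2 fold change -0.22 ± 0.04, edgeR adjusted p = 0.000241). Its exons overlap those of LETM2, at 16.8 and 10.7 mean CPM. FGFR4, the receptor for FGF19 in liver, stood at 49.8, 52.8 and 48.4 CPM in shTRIP6 against 25.2, 25.8 and 32.8 CPM in shControl, a rise of 0.85 ± 0.09 on the log2 scale (adjusted p = 1.28e-07). FGFR3, best known as a brake on cartilage growth, stood at 6.43, 6.81 and 7.59 CPM against 2.08, 2.89 and 2.30 CPM (log2 fold change 1.52 ± 0.18, adjusted p = 9.21e-07). All shTRIP6 libraries lay above all shControl libraries for both. FGFR2, usually an epithelial receptor, had 2 counts in each shTRIP6 library and 0 in each shControl library, within the limit of 3 counts under which a gene is called silent here. The summed level of the family per length was 25.9 ± 0.270 in shTRIP6 and 22.6 ± 1.19 CPM per kb in shControl.

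The receptors for PDGF, stem cell factor (KIT) and CSF1 share a split kinase domain. PDGFRB stood at 14.7, 12.6 and 14.5 CPM in shTRIP6 against 7.79, 5.49 and 7.37 CPM in shControl (log2 fold change 1.02 ± 0.14, edgeR adjusted p = 3.93e-06). KIT stood at 8.85, 9.85 and 10.6 CPM against 6.25, 4.14 and 5.01 CPM (log2 fold change 0.93 ± 0.16, adjusted p = 5.27e-05), again with no overlap. CSF1R, the macrophage receptor, had 19, 16 and 10 counts in shTRIP6 and 3, 11 and 4 in shControl. The groups overlapped and it was not called (log2 fold change 1.27 ± 0.59, adjusted p = 0.0726), except without shControl replicate 2 (log2 fold change 2.01, adjusted p = 0.0261). The other alternatives gave up to 0.228. PDGFRA had 0 to 5 counts in a library and FLT3 none in any.

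Of the 7 tested ligand genes of this family 3 fell and 1 rose, where 31.2% of all tested genes were called lower and 29.0% higher. KITLG, the KIT ligand gene, fell to 8.08 ± 0.829 against 17.8 ± 2.09 CPM (log2 fold change -1.14 ± 0.12, edgeR adjusted p = 1.48e-07), and CSF1 fell to 13.8 ± 0.679 against 48.1 ± 3.61 CPM (log2 fold change -1.80 ± 0.08, adjusted p = 7.70e-13). PDGFB fell by 0.71 on the log2 scale, PDGFC rose by 0.31, and PDGFA, PDGFD and FLT3LG were not called (PDGFD was called lower without shControl replicate 3, adjusted p = 0.0489). PDGFRB is also a marker of fibroblasts and pericytes. Of 8 fibroblast markers, all tested, 1 was called higher (THY1) and 5 lower. That is 12.5% higher and 62.5% lower, beside 29.0% and 31.2% of all genes tested. FAP fell to 0.3283 mean CPM in shTRIP6 against 14.99 in shControl (log2 fold change -5.494, edgeR adjusted p = 3.942e-14). COL3A1 (log2 fold change -3.074) and COL1A1 (-1.115) were also called lower. DCN and POSTN, called lower and at 0 counts in shTRIP6, passed the filter only through the shControl libraries. Their difference is therefore partly built into their being tested. The sum of the list was 145 to 165 CPM in shTRIP6 and 110 to 121 CPM in shControl, most of it THY1 (153 and 89.3 mean CPM). Of 8 leukocyte markers, which bear on KIT and CSF1R, 2 were tested and both rose (CD14 and CD68), PTPRC was at 0 counts in shTRIP6, and the sum was 236 to 245 and 187 to 236 CPM. CD68, at 239 and 208 mean CPM, made up most of it, and was not called without shControl replicate 2 (adjusted p = 0.0921). All libraries are bulk RNA of the RKO line, in which fewer cells expressing a gene and less RNA per cell cannot be told apart.

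Vascular receptors were silent or low. FLT1 and KDR, the main VEGFA receptors, had at most 3 and 2 counts in a library. FLT4, the VEGFC receptor of lymphatic vessels, had 18, 25 and 35 counts in shTRIP6 and 2, 1 and 1 in shControl, or 0.830 ± 0.281 against 0.0439 ± 0.0202 CPM. The groups did not overlap (log2 fold change 4.13 ± 0.67, edgeR adjusted p = 3.13e-05), but the level was at most 1.13 CPM. TEK, the angiopoietin receptor, had at most 2 counts in a library, while its relative TIE1 stood at 1.57, 1.60 and 1.35 CPM in shTRIP6 against 0.370, 0.995 and 0.970 CPM in shControl. TIE1 was called higher by a small margin (log2 fold change 0.94 ± 0.38, adjusted p = 0.0379). DESeq2 did not call it (adjusted p = 0.0681), nor did edgeR once shTRIP6 replicate 1 (0.0967), 2 (0.102) or 3 (0.0600) was left out, or shControl replicate 1 (0.152). Over all alternatives that tested it the adjusted p ran from 0.0244 to 0.152. Of 7 endothelial markers ESAM rose. PECAM1 had no count in shTRIP6 and 1.64 mean CPM in shControl, and it too was tested only through the shControl libraries. CDH5, not tested, had 0, 0 and 2 counts in shTRIP6 and 8, 13 and 4 in shControl, at or under 0.417 CPM in every library. VWF and CLDN5, also not tested, had overlapping libraries, and ERG and EMCN were at 0 throughout. The sum of that list was 3.90 to 4.56 CPM in shTRIP6 and 3.06 to 3.30 CPM in shControl. Most of the shTRIP6 sum was ESAM (3.83 mean CPM, against 0.816 in shControl), so the higher sum does not describe the list as a whole. The part of these other cell types' markers in the results was not tested.

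The remaining receptors were mostly single members of their families. STYK1 (chromosome 12, 10618939 to 10674318, minus strand, GRCh38), a membrane kinase homologue with a very short extracellular part, stood at 14.5, 15.2 and 12.0 CPM in shTRIP6 against 3.26, 2.70 and 2.04 CPM in shControl. It was 5.21-fold higher by group means, the largest rise among receptor genes above 1 CPM in both groups (log2 fold change 2.38 ± 0.17, edgeR adjusted p = 5.42e-10). DDR2, a receptor for fibrillar collagen, stood at 3.98, 3.74 and 4.44 CPM against 1.68, 1.64 and 1.68 CPM (log2 fold change 1.28 ± 0.22, adjusted p = 4.81e-05). PTK7, a pseudokinase of planar cell polarity and WNT signalling, rose less, with 21.7 ± 1.10 CPM in shTRIP6 against 15.6 ± 1.09 CPM in shControl, a log2 fold change of 0.48 ± 0.09 (adjusted p = 0.000184). INSR, the insulin receptor gene, fell to 19.4, 17.2 and 15.9 CPM from 25.5, 25.5 and 23.6 CPM (log2 fold change -0.51 ± 0.09, adjusted p = 0.000103). NTRK3, the neurotrophin-3 receptor gene, stood at 1.01 ± 0.292 and 0.567 ± 0.198 CPM with overlapping libraries (adjusted p = 0.102, 95% interval -0.07 to 1.72).

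With 3 counts or fewer in every library taken as silent, 8 of the 34 receptor genes were silent in both groups, or 23.5%. Over all 27980 symbols the share was 33.9%, but these include noncoding genes such as EGFR-AS1, while all 34 receptor genes are protein-coding. The shares are therefore not like for like. The 8 silent receptor genes were FLT3, FLT1, KDR, FGFR2, NTRK2, DDR1, RET and TEK. Without DDR1, whose 0 is treated separately below, it was 7 of 33, or 21.2%. FLT3, NTRK2 and RET had no count at all, which allows up to 0.0941 to 0.101 CPM in a library. That is the level of 3 counts, for counting error only and with each count taken as an independent molecule. ROS1, a receptor whose ligand was long unknown, had no count in shTRIP6 and 16, 4 and 11 in shControl. Set against 3 counts in the whole shTRIP6 group (0.0318 CPM), its shControl mean was 10.7 times as high. That ratio takes each count as an independent molecule and leaves out the spread of the shControl counts, so it is no firm lower limit. ROS1 missed the filter on low counts and was not tested there, and in the 6 alternatives that did test it, it was called lower in each (adjusted p = 0.000676 to 0.00625, with 0.000685 in DESeq2). In the fits without a library ROS1 passed the filter only through shControl libraries, so its difference there is partly built into its being tested. ERBB4 and ROS1 were silent in shTRIP6 alone and FLT4 and ALK in shControl alone by this rule. ALK, with at most 5 counts in a library, and LTK, with at most 11, were too low to be tested.

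The 0 of DDR1, a collagen receptor of epithelia, can be read only as a listing. DDR1 lies on chromosome 6 from 30876421 to 30900156 (GRCh38), within the major histocompatibility region. Of the 12 protein-coding genes of the table within 200 kb of it, 9 were also listed at 0 in all 6 libraries. Among these were TUBB, a tubulin gene, and GTF2H4, a subunit of a general transcription factor, which are genes that dividing cells use. The other 3, MDC1, FLOT1 and IER3, had at least 3496 counts in every library. For the other silent receptors the neighbours differed: of the 5 genes around FLT3 2 were listed at 0, of the 3 around FLT1 1 (FLT3 itself), and none around FGFR2 (1 gene), RET (2 genes) and TEK (5 genes). KDR and NTRK2 had no neighbour in that window.

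Genes of the ligands were followed across 63 symbols, of which 34 were tested, 13 rose, 10 fell, 11 were not called and 29 were too low to test. That is 38.2% higher and 29.4% lower, beside 29.0% and 31.2% of all genes tested. Their median log2 fold change was 0.16. EPGN, called lower, and PSPN, not called, passed the filter only through the shControl libraries, so the fall of EPGN is partly built into its being tested. EGF-like ligands moved both ways. NRG4, a ligand of ERBB4, had the largest fall of these genes, to 0.408, 0.448 and 0.257 CPM in shTRIP6 from 17.5, 13.0 and 12.4 CPM in shControl (log2 fold change -5.25 ± 0.23, edgeR adjusted p = 4.90e-13). The EGFR ligand gene EREG fell to 15.2 ± 1.11 against 26.1 ± 2.79 CPM, TGFA fell by 0.39 and BTC, at under 3 CPM in every library, by 1.56 on the log2 scale. HBEGF rose to 59.5 ± 0.996 against 36.6 ± 2.49 CPM (log2 fold change 0.70 ± 0.07). NRG1, a ligand of ERBB3, was at 180.0 ± 5.96 and 183 ± 2.74 CPM (adjusted p = 0.667), so the receptor gene rose while this ligand gene was not called. NRG2 (0.94) and NRTN (0.88), both under 3 CPM, were called higher with adjusted p of 0.0323 and 0.0298, and lost that call in several alternatives, DESeq2 among them (0.0541 and 0.0584). Without a library the adjusted p of NRG2 reached 0.136 (shControl replicate 3) and that of NRTN 0.171 (shTRIP6 replicate 1).

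VEGFA fell to 29.1 ± 1.38 against 64.9 ± 2.23 CPM (log2 fold change -1.16 ± 0.07, edgeR adjusted p = 2.18e-11) in cells in which its receptors FLT1 and KDR were silent. VEGFC, the ligand gene of FLT4, stood at 21.4 ± 1.36 and 22.6 ± 0.639 CPM and was not called (adjusted p = 0.456). The VEGF and semaphorin co-receptor genes NRP1 and NRP2 fell, NRP1 to 182 ± 2.80 against 242 ± 8.28 CPM and NRP2 to 14.5 ± 1.10 against 26.6 ± 3.20 CPM. They were the 2 tested genes of 9 co-receptors, and 6 of the other 7 were silent. FGF2, FGF1 and FGF5 all rose by small amounts (0.24, 0.30 and 0.43 on the log2 scale). BDNF, ligand of the silent receptor gene NTRK2, stood at 93.5 ± 3.31 and 72.3 ± 3.75 CPM (log2 fold change 0.37 ± 0.06).

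**Figure D4:**
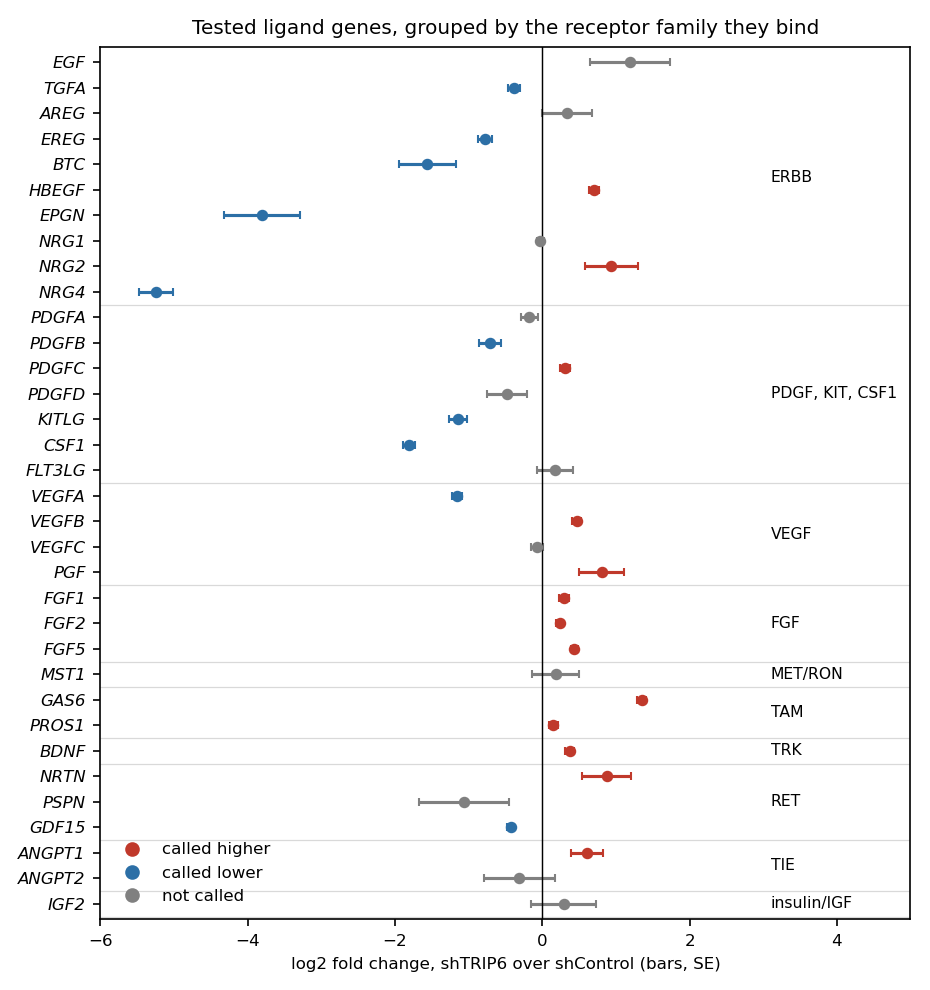
Log2 fold change of shTRIP6 over shControl for the 34 tested ligand genes, with SE as bars, grouped by the receptor family their products bind. NRG4 (-5.25) lies farthest left and GAS6 (1.35) farthest right, and 3 of 3 tested FGF ligand genes and both TAM ligand genes lie above 0 and are called, PROS1 just past the threshold and not in 8 of 14 alternatives.

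Downstream of the receptors, all 29 genes of the adaptor and kinase list were tested, and 11 rose, 11 fell and 7 were not called (37.9% each way, beside 29.0% higher and 31.2% lower of all genes tested). The median log2 fold change was -0.02. Rises included those of the adaptor gene FRS3 (1.16 ± 0.21, at 7.51 and 3.36 CPM) and of HRAS (0.79 ± 0.07, at 60.4 ± 4.41 and 34.9 ± 2.76 CPM). Falls included those of the RAS exchange factor gene SOS1 (-0.75 ± 0.10, at 32.3 ± 2.77 and 54.3 ± 10.2 CPM) and of the kinase gene BRAF (-0.50 ± 0.08, at 29.2 ± 0.867 and 41.3 ± 3.81 CPM). Of the 2 adaptors named above, GRB2 fell by 0.41 and SHC1 rose by 0.51 on the log2 scale.

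Among 24 tested feedback inhibitors and ERK response genes, 10 rose, 6 fell and 8 were not called (41.7% higher and 25.0% lower, beside 29.0% and 31.2% of all genes tested). The median log2 fold change was 0.10. The ERK phosphatase gene DUSP4 fell to 23.4, 22.4 and 22.9 CPM from 89.8, 79.2 and 81.2 CPM (log2 fold change -1.86 ± 0.07, edgeR adjusted p = 2.19e-14). DUSP9 (-2.07 ± 0.28) and the Sprouty gene SPRY3 (-1.98 ± 0.34), both low, fell as well. SPRED3, another inhibitor of RAS-ERK signalling, rose to 14.2 ± 1.06 against 5.18 ± 0.550 CPM (log2 fold change 1.46 ± 0.13). LRIG1, which promotes the breakdown of ERBB receptors, rose by 0.79 ± 0.08 and the ETS factor gene ETV1 by 0.74 ± 0.09. DUSP6, the phosphatase gene most used as a readout of ERK, stood at 69.9 and 69.1 mean CPM and was not called (adjusted p = 0.820).

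The label of a colon carcinoma line was checked against 9 epithelial markers. KRT8 (1719 and 1804 mean CPM) and KRT18 (885 and 871) were abundant in both groups and not called, except KRT8 without shControl replicate 1 (log2 fold change -0.11, adjusted p = 0.00388). KRT19 rose to 50.7 against 13.8 CPM. EPCAM, KRT20, VIL1 and LGALS4, of simple and intestinal epithelium, had at most 3 counts in any library, CDH1 stayed under 1 CPM, and CDX2 had 0 to 4 counts. The libraries therefore carried simple-epithelial keratins without the other epithelial and intestinal markers of the list.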

How the data were processed

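The authors deposited 1 table of read counts by gene symbol for each library, in whole numbers and not normalized. TopHat2, edgeR, limma and hg38 are named, without role or version, in the submitters' processing notes. For the counting tool, the annotation and strandedness: not given in the sources used here. In every library more genes had 4 counts than 3 and more had 6 than 5, so a count may not be an independent molecule.

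The test was the quasi-likelihood test of edgeR 4.0.16 (under R 4.3.3) on the whole table, after TMM scaling and filterByExpr, with group as the only term. CPM used TMM-scaled totals. Levels per length used the union of exons in GENCODE 29 (GRCh38). On simulated counts of this comparison (15303 genes fitted, 50 changed per size) 30% of the genes simulated with a 1.2-fold change were called, as were 78% of those at 1.5-fold, 88% at 2-fold and 96% at 4-fold, and 5.19% of calls were false. Only 200 genes were changed in the simulation, while 60.1% of tested genes were called in the data. The simulated shares therefore do not carry over to the data. As alternatives, scaling was by RLE, by upper quartiles or left out, the filter was left out or set at 1 CPM in 3 libraries, and the other fits were DESeq2 1.42.0, limma-voom (limma 3.58.1), the replicate number as a block, and leaving out each library. The longest transcript as length was added after the data were seen.

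All 34 receptor genes are reported. Each pathway list gave up to 3 rises and 3 falls, the largest by log2 fold change among its called genes whose mean reached 1 CPM, and some genes so chosen are not reported here. Ligands of named receptors could also be given by value. GRB2, SHC1, DUSP6 and the neighbours of DDR1 were chosen after their values were seen. Members and lists were chosen with earlier results of these data known. Promoter windows are from RefSeq (GRCh38.p14).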

Additional observations from a re-analysis of the deposited data

How the results depend on the processing

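The number of receptor genes called was 10 to 12 higher and 4 or 5 lower over all alternatives, with 11 and 4 as the values reported. Leaving out a library gave 10 to 12 higher and 4 to 5 lower. TIE1 was the one receptor call that was lost among genes still tested, and the calls added were those of ROS1 where it was tested, CSF1R without shControl replicate 2 and TYRO3 without shControl replicate 1. The counts for all genes and for the 4 pathway lists stayed within 1.5 times of those reported. The same-numbered libraries of the groups did not vary together (correlations of deviations -0.0522 to -0.00601), and with the replicate number as a block 11 receptor genes were called higher, 4 lower and 9079 genes in all, with the calls of the ligand genes NRTN (adjusted p = 0.0578) and PROS1 (0.0523) lost. Under a limit of 1 count in every library 4 receptor genes were silent, and under 10 counts 11, against 8 at the limit of 3. With the longest transcript as length the share of AXL moved from 57.8% to 51.2% in shTRIP6 and from 40.1% to 33.6% in shControl. Receptor genes with a mean of 0.171 CPM or less over the 6 libraries were not tested, and the lowest tested one, CSF1R, had 0.335 CPM.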
